A study of Mus musculus with 6 samples.

Results

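The genes of the basement membrane and of the hemidesmosome were followed in back skin taken after shaving from tight skin mice, called TSK, and from WT littermates. The set holds 39 of the 55291 genes in the count table and was chosen by gene name: collagen IV and laminin chains, nidogens, heparan sulphate proteoglycans, anchoring collagens, hemidesmosome proteins and a few matrix proteins that associate with them. All 39 were tested. RNA from 3 TSK and 3 WT mice was sequenced, 1 library per mouse, and every mouse was of the C57BL/6 strain and aged 6 to 8 weeks by the labels. The TSK allele is a germline duplication within Fbn1, which encodes the microfibril protein fibrillin, and WT littermates lack it. No mouse received a treatment by the labels. On sex the sources differ, female in the labels and male in the written methods. Fbn1 itself ran from 261 to 351 CPM (counts per 1000000, scaled by TMM as explained below) over the WT libraries and from 1450 to 2050 CPM over the TSK libraries.

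A basement membrane is a thin sheet of matrix beneath epithelia and around vessels, nerves, fat cells and muscle fibres. Networks of laminin and collagen IV form the sheet, nidogens bridge them, and perlecan, agrin and collagens XV and XVIII bind to it. In skin, the hemidesmosome ties the keratin filaments of basal keratinocytes to this sheet through plectin, dystonin, collagen XVII and an integrin pair, and collagen VII forms the anchoring fibrils that hold the sheet to the dermis. Inherited loss of these anchoring parts causes blistering disease.

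Genes for paired collagen IV chains lie head to head, and a few start regions are shown because the RNA of these pairs, or the genes that passed the test, are described below. Capitals mark the GC box, with the letters GGGCGG, and the CCAAT box, each read on both strands, so that a box on the other strand appears as its reverse complement. Sequences were taken from the RefSeq promoter table (build GRCm38.p6), which held 26 of the 39 genes, and were cut at the annotated start so that no transcribed base is shown except in the region shared by Col4a1 and Col4a2. There the annotated transcripts overlap by 22 bases at chr8:11312805-11312826 (plus strand), and the starts of Col4a3 and Col4a4 are separated by 71 bases at chr1:82586850-82586920 (plus strand). The starts of Col4a5 and Col4a6 on chromosome X lie 1308 bases apart.
Col4a1 and Col4a2, shared start: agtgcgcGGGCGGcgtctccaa
Col4a3 and Col4a4, between the starts: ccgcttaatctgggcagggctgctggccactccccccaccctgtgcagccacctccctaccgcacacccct
Col7a1 upstream, chr9:108953336-108953585, plus strand: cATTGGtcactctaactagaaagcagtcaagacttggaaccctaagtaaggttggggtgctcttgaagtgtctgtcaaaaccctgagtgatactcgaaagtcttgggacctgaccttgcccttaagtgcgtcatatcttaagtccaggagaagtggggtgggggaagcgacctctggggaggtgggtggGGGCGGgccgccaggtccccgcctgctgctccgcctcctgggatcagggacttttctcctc
Lamb1 upstream, chr12:31265043-31265233, plus strand: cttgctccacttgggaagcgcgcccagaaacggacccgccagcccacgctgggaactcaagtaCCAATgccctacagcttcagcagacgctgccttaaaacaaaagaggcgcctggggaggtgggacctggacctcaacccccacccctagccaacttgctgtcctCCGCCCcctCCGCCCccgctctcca
Nid1 upstream, chr13:13437352-13437550, plus strand: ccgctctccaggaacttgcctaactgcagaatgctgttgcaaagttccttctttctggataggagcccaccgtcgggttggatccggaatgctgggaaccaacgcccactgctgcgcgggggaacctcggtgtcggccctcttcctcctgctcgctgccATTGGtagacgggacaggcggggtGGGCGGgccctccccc
The 250 bases before Col7a1 held 1 GC box and 1 CCAAT box, the 191 bases before Lamb1 held 2 and 1, and the 199 bases before Nid1 held 1 and 1. A GC box was found in 31.0% and a CCAAT box in 29.2% of windows of 191 bases before 27025 genes (32.9% and 34.5% for 250 bases). The AP-1 site TGANTCA was in none of these windows and in 5.29% to 6.87% of the windows of all genes. These are matches of letters only.

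The libraries held 17561453 to 19219814 counts, of which the 39 genes took 0.681% to 0.780% in WT and 0.892% to 0.991% in TSK. These are shares of unscaled counts and do not mean that each gene rose. Sparc alone had 9970 to 10423 counts per library in WT and 19196 to 40494 in TSK. Levels are given as CPM scaled by TMM, a factor per library (0.823 to 1.03 in WT, 1.06 to 1.13 in TSK) that limits the weight of a few abundant genes, and fold changes are on the log2 scale as TSK minus WT. Because the skin was sequenced whole, fewer cells of a type and less RNA per cell cannot be told apart. All 5 basal keratinocyte markers were counted in every library at 257 counts or more, so epidermis was present in each, and skeletal muscle markers summed to 106000 to 243000 CPM.

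With edgeR's quasi-likelihood test over all 19971 genes tested, 6 of the 39 genes were higher in TSK skin (15.4%, against 2.71% of all genes tested) and 1 was lower (2.56%, against 0.681%) at an adjusted p below 0.05. The 6 were the laminin chains Lama4, Lamb1 and Lamc3, the linker Nid1, Frem1 and the crosslinking enzyme Pxdn, and the 1 was Col7a1. Of the 39, 20 had a positive and 19 a negative log2 fold change, and the median was 0.02, beside -0.03 over all genes tested. WT and TSK values were fully apart in 9 genes that were higher in TSK (23.1%, against 14.1% of all genes tested) and in 8 that were lower (20.5%, against 10.6%). On the deposited CPM, which are not TMM-scaled, 17 were higher and 4 lower without overlap, against 29.1% and 2.58% of all genes tested, and Itga3, Lama5, Col4a5 and Smoc2 overlapped there. Col4a1, Col4a2, Col4a4, Lamb2, Lamc1, Nid2, Col15a1 and Tinagl1 were higher in TSK without overlap on that scale only. At an unadjusted p below 0.05 stood 19 of the 39, 48.7%, against 20% of all genes (12.1% higher and 7.9% lower), and the 7 calls in either direction compare with 3.39% of all genes. With the adjusted p cutoff at 0.1, edgeR called 8 higher and 3 lower, against 5.8% and 2.11% of all genes. DESeq2 called 8 higher and 3 lower, where 5.13% and 1.85% of all genes it tested were called. At the thresholds of the study, a fold above 2.5 and an adjusted p below 0.01, edgeR called 0 of the 39 in either direction (background 0.255% higher and 0.0351% lower), limma-voom called 0 (0.105% of all genes higher) and DESeq2 called 3 higher, which were Frem1, Lamc3 and Nid1, where it called 1.4% of all genes higher.

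**Figure D1:**
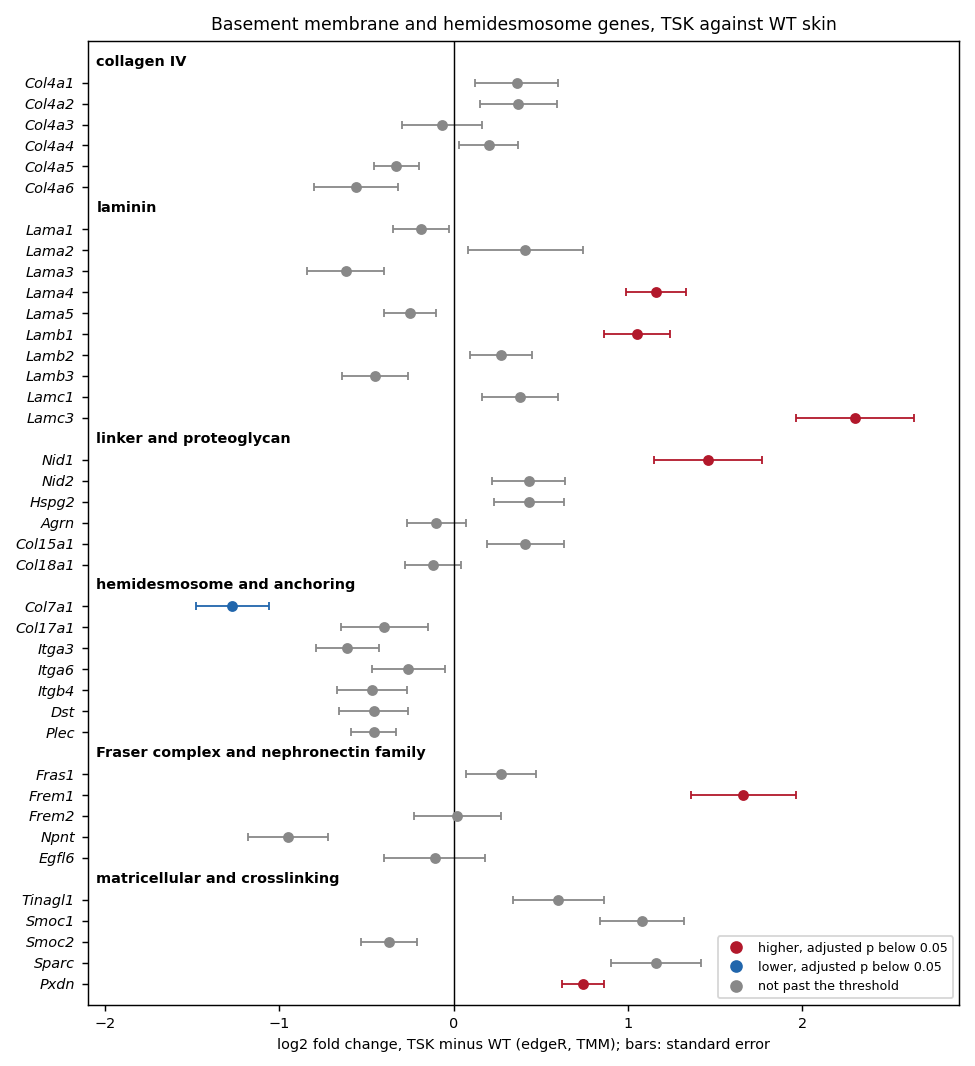
Log2 fold change (TSK minus WT, x axis) of each of the 39 genes, grouped by role on the y axis, with bars for the standard error; red and blue points passed an adjusted p below 0.05. All 7 hemidesmosome and anchoring genes sit left of 0, from -1.27 to -0.26, and the greatest value on the right is Lamc3 at 2.30.

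Without WT 3, edgeR called 0 of the 39 genes, with 16 at an unadjusted p below 0.05, and the share called among all genes dropped to 0.29% (60 genes, from 678), so the loss was general, while the log2 fold changes of the 7 genes ran from -1.28 for Col7a1 to 2.26 for Lamc3. The other 5 fits that left out 1 library called 4 to 9 of the 39, and 1.39% to 6.13% of all genes.

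Laminin is a trimer of an alpha, a beta and a gamma chain, and 3 of the 10 laminin genes were higher in TSK skin, with a member of each chain class among them. Lama4 (chromosome 10, 38965515 to 39110188), the alpha chain of vessel, nerve and fat cell basement membranes, was at 40.0, 50.8 and 44.9 CPM in WT and 84.4, 123 and 95.3 CPM in TSK (libraries 1, 2 and 3 of each group in that order, here and below). It rose by 1.16 on the log2 scale (SE 0.17, edgeR adjusted p = 0.0148). The lowest TSK library was thus well above the highest WT library.

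Lamb1 (chromosome 12, 31265234 to 31329644), a widely made beta chain, was at 46.1, 68.9 and 56.5 CPM in WT and 104, 142 and 110 CPM in TSK. The groups did not overlap, and it rose by 1.05 (SE 0.19, edgeR adjusted p = 0.0239). Without TSK 2 or TSK 3 its edgeR adjusted p was 0.0557 or 0.0527. Lamc3 (chromosome 2, 31887291 to 31946539), the gamma chain made in few tissues, was at 4.56, 1.68 and 2.86 CPM in WT and 19.3, 11.7 and 14.3 CPM in TSK. Its rise of 2.30 (SE 0.34, edgeR adjusted p = 0.0148) was the greatest among the 39 genes, and WT 2, the lowest library, was at less than any other. Of the exon bases of Lamc3, 6.27% overlap an antisense gene with a mean of 6.59 counts.

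Lama3 and Lamb3 encode chains of the laminin that hemidesmosomes bind, and neither passed the test. Lama3 was at 128, 78.6 and 89.6 CPM in WT and 79.5, 54.0 and 58.9 CPM in TSK, a difference of -0.62 (SE 0.22, edgeR adjusted p = 0.158). Lamb3 was at 97.4, 72.1 and 68.1 CPM in WT and 71.1, 51.5 and 51.9 CPM in TSK (-0.45, SE 0.19, edgeR adjusted p = 0.232). In both genes TSK 1 overlapped the WT range. Lama5, the alpha chain of mature epidermal and vessel basement membranes, was at 126, 93.6 and 92.6 CPM in WT and 90.7, 84.5 and 87.2 CPM in TSK (-0.25, SE 0.15, edgeR adjusted p = 0.398), and its direction turned (0.04) on the deposited CPM.

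The other 4 laminin genes, among them the muscle chain Lama2 and the common chains Lamb2 and Lamc1, ranged on the log2 scale from -0.19 (Lama1) to 0.41 (Lama2), and the groups overlapped in each on the TMM scale. Lamb2 and Lamc1 did not overlap on the deposited CPM. Each passed in 2 of 19 fits, both on that scale, where 8.87% and 8.82% of all genes were called higher.

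**Figure D2:**
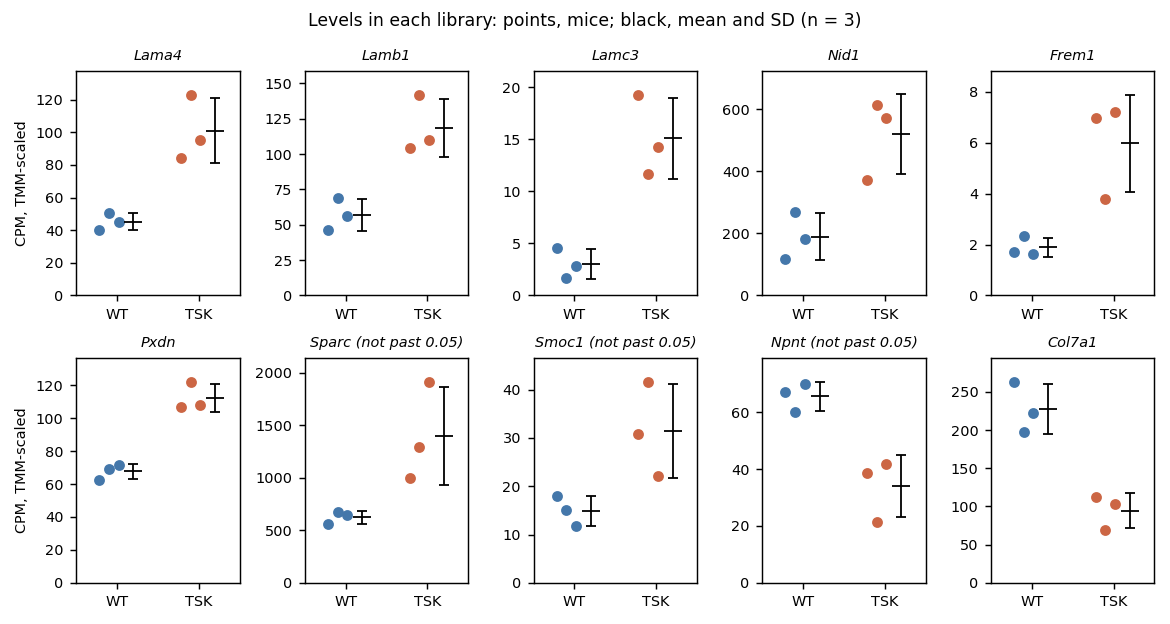
Level of 10 genes in each library (y axis, TMM-scaled CPM from 0; x axis, genotype); points are mice, and the black marks give the mean and SD (n = 3). The WT and TSK points do not overlap in any of the 10; Sparc, Smoc1 and Npnt did not pass an adjusted p of 0.05.

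To see the make-up of laminin apart from the scaling of libraries, each alpha and beta chain was taken as a share of its class within a library, with counts divided by the merged exon length of the gene. Lama4 made up 10.7%, 13.5% and 13.1% of alpha chain RNA in WT and 22.4%, 30.7% and 24.4% in TSK. Lama5 made up 30.2% ± 4.89 in WT and 23.9% ± 1.53 in TSK (SD, n = 3), and Lama3 30.4% ± 7.53 and 18.6% ± 4.49. Shares of Lama4 and Lama5 were apart between WT and TSK, and those of Lama3 overlapped.

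Lamb1 made up 11.7%, 14.2% and 12.8% of beta chain RNA in WT and 20.6%, 26.5% and 20.6% in TSK. Lamb3 went the other way, with 37.1%, 22.3% and 23.1% in WT and 21.2%, 14.4% and 14.5% in TSK, and Lamb2 made up 59.6% ± 7.23 and 60.7% ± 3.65 (SD, n = 3). Shares of a class add up to the whole, so a greater share of a chain lowers the others. A lower share is thus not by itself a fall in level. WT 1 stood apart in most shares, toward the epidermal chains. With 3 mice against 3, an exact permutation test (two-sided) cannot go below p = 0.1, so these shares are given without a test.

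**Figure D3:**
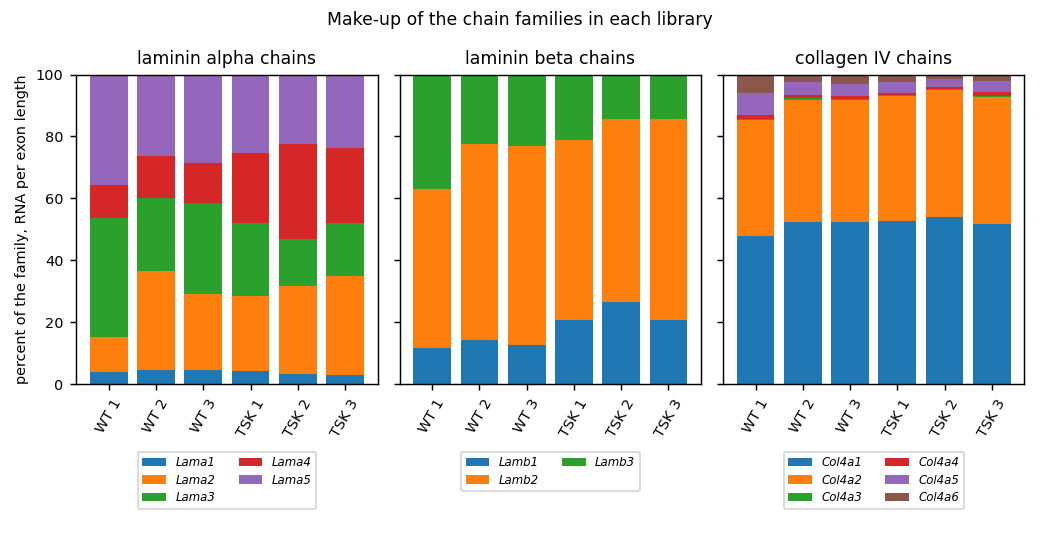
Share of each chain (y axis, percent of its family in RNA per exon length) in each library (x axis) for laminin alpha and beta chains and for collagen IV. Lama4 and Lamb1 take a greater part in each TSK library than in the highest WT one, and the collagen IV make-up is dominated by Col4a1 and Col4a2 in all 6.

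Collagen IV forms the other network of the sheet, and 0 of its 6 genes passed an adjusted p of 0.05 with edgeR (2 at an unadjusted p below 0.05), DESeq2 or limma-voom. Col4a1 (chromosome 8, 11198423 to 11312826) was at 344, 598 and 508 CPM in WT and 616, 731 and 510 CPM in TSK (0.36, SE 0.24, edgeR adjusted p = 0.455). Its neighbour Col4a2 (11312805 to 11449287) was at 238, 397 and 338 CPM in WT and 417, 489 and 356 CPM in TSK (0.37, SE 0.22, edgeR adjusted p = 0.388). WT 1 was the lowest library of both and TSK 2 the highest. Col4a2 passed in 3 of 19 fits, with library size only (0.68) and in 2 on the deposited CPM. In those fits 8.44% to 8.87% of all genes were called higher.

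Per exon length, the level of Col4a1 was 1.32 ± 0.0319 times that of Col4a2 in WT and 1.30 ± 0.0280 times in TSK (SD, n = 3), although both genes varied by more than 2-fold over the 6 libraries. Col4a5, which with Col4a6 encodes chains of the epidermal basement membrane, was at 46.8, 42.6 and 35.3 CPM in WT and 34.7, 31.2 and 33.3 CPM in TSK. The groups came close without overlapping, and the difference of -0.33 (SE 0.13) did not pass (edgeR adjusted p = 0.217). Col4a6 differed by -0.56 on the log2 scale, Col4a3 by -0.07 and Col4a4 by 0.20, with overlapping groups in all 3 genes on the TMM scale. Together Col4a1 and Col4a2 held most collagen IV RNA per length (50.9% and 38.7% in WT, 52.9% and 40.6% in TSK), and Col4a3 held 0.557% in WT and 0.43% in TSK. Shares did not overlap between the groups for Col4a2 (TSK higher), Col4a3 and Col4a5 (TSK lower, 5.14% and 3.21%). They overlapped for Col4a1, Col4a4 and Col4a6.

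Among linkers and proteoglycans, Nid1 was higher in TSK and its paralogue Nid2 was not past the threshold. Nid1 (chromosome 13, 13437551 to 13512269), which joins laminin to collagen IV, was at 118, 268 and 182 CPM in WT and 373, 614 and 571 CPM in TSK. It rose by 1.46 (SE 0.31, edgeR adjusted p = 0.0447). The call sat close to the threshold: the edgeR adjusted p was 0.106 without TSK 2 and 0.108 without TSK 3, and limma-voom gave 0.0551. A stretch of 225 bases of Nid1 matches Gm2399 at 99.6% identity, and that gene had a mean of 74.1 counts beside 6940 for Nid1.

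Against Lamc1, the laminin chain that nidogen binds, Nid1 RNA per exon length was 0.676, 0.906 and 0.710 times as high in WT and 1.43, 1.90 and 1.56 times in TSK, with no overlap. Nid1 also made up 82.7% ± 1.92 of nidogen RNA in WT and 90.7% ± 1.52 in TSK (SD, n = 3). Hspg2, the gene of perlecan, was at 508, 769 and 665 CPM in WT and 807, 922 and 885 CPM in TSK. Its groups did not overlap, but the difference of 0.43 (SE 0.20) did not pass (edgeR adjusted p = 0.275). Nid2, Agrn (agrin), Col15a1 and Col18a1 had log2 fold changes of -0.12 to 0.43 with overlapping groups, and 8.45% of the exon bases of Nid2 lie opposite exons of Rtraf, so its value is uncertain if strand was not used in counting.

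All 7 hemidesmosome and anchoring genes had lower levels in TSK, at a median of -0.46 on the log2 scale, and 1 of them passed the test. Their direction was negative in all 19 fits, but the size depended on the scaling: with library size only, which moved the median of all genes from -0.03 to 0.25, the median of the 7 was -0.19 and Itga6 stood at -0.01. Col7a1 (chromosome 9, 108953586 to 108984875), the gene of the anchoring fibril, was at 263, 198 and 222 CPM in WT and 112, 68.8 and 103 CPM in TSK. It fell by 1.27 on the log2 scale (SE 0.21, edgeR adjusted p = 0.0191), and the highest TSK library was far below the lowest WT library. It passed in 18 of 19 fits, all on the same mice. Its values ran from -1.41 without TSK 1 to -1 on the deposited CPM, with -1.01 on library size only.

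The 6 others did not pass. Itga3, an integrin alpha chain that binds laminin at the base of keratinocytes, was at 53.9, 42.6 and 52.2 CPM in WT and 41.6, 26.9 and 29.2 CPM in TSK (-0.61, SE 0.18, edgeR adjusted p = 0.112). Plec (plectin) was at 28.0, 35.1 and 35.3 CPM in WT and 23.1, 24.1 and 24.3 CPM in TSK (-0.46, SE 0.13, edgeR adjusted p = 0.0921), with the TSK libraries close together. Dst (dystonin), which is also made in muscle and nerve, was at 2190, 2440 and 2150 CPM in WT and 1750, 1660 and 1510 CPM in TSK (-0.46, SE 0.20, edgeR adjusted p = 0.239). In these 3 genes the groups did not overlap. DESeq2 passed Dst (adjusted p = 0.0247) and not Itga3 (0.0763) or Plec (0.0753). Plec shares 205 exon bases, 1.13% of its own, with Parp10 on the same strand, and 7.66% of the exon bases of Itgb4 lie opposite a long noncoding RNA.

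Col17a1, the transmembrane collagen of the hemidesmosome, was at 1210, 869 and 819 CPM in WT and 972, 614 and 611 CPM in TSK (-0.40, SE 0.25, edgeR adjusted p = 0.428). Itga6 and Itgb4 encode the integrin pair of the hemidesmosome. Itga6 was at 242, 192 and 195 CPM in WT and 218, 179 and 126 CPM in TSK (-0.26, SE 0.21, edgeR adjusted p = 0.536), and Itgb4 at 221, 158 and 155 CPM in WT and 158, 108 and 120 CPM in TSK (-0.47, SE 0.20, edgeR adjusted p = 0.243). WT 1 was the highest library in all 3 genes, and the groups overlapped in each. Without WT 1 the log2 fold change was -0.18 for Col17a1 and -0.12 for Itga6. Over the fits that left out 1 library, Col17a1 ran from -0.66 to -0.18, Itga6 from -0.45 to -0.08 and Itgb4 from -0.65 to -0.26.

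Levels of basal keratinocyte markers are given beside these genes. The 5 markers (0 of 5 past the edgeR threshold, 0 at an unadjusted p below 0.05, 0 with DESeq2 and 0 with limma-voom) all had negative log2 fold changes, and their sum was 6120, 3790 and 4220 CPM in WT and 4640, 2700 and 2720 CPM in TSK, with none at 0 and with overlapping groups. Krt5, Krt14 and Krt15 made up most of that sum (WT means of 2110, 1020 and 1380 CPM, beside 4710 CPM for the sum). Trp63 and Cdh3 had WT means of 179 and 25.3 CPM and so little weight. When each gene was divided by that sum, Col17a1 stood at 20.7% ± 1.94 in WT and 22.0% ± 0.962 in TSK, Itgb4 at 3.81% ± 0.298 and 3.93% ± 0.497, Lama3 at 2.10% ± 0.0259 and 1.96% ± 0.228, and Lamb3 at 1.70% ± 0.174 and 1.78% ± 0.216 (SD, n = 3). The groups overlapped in these and in Itga3, Itga6, Dst, Plec and Lama5. Dst and Plec were apart in CPM, and division by the sum, greatest in WT 1, widened their spread. In WT, Dst stood at 35.8%, 64.5% and 50.9% and Plec at 0.457%, 0.925% and 0.836%. Overlap on this scale thus does not show that a gene follows the markers, which was not tested.

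Col7a1 was the exception among the 7. It stood at 4.29%, 5.23% and 5.26% of the marker sum in WT and at 2.41%, 2.55% and 3.79% in TSK, so that the groups did not overlap. Of all genes tested, 0.396% were lower without overlap on this relative scale. Of 6 suprabasal keratinocyte markers, 4 had positive and 2 negative log2 fold changes and 1 was called higher, with overlapping sums of 1210 to 1560 CPM in WT and 1370 to 2650 CPM in TSK.

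**Figure D4:**
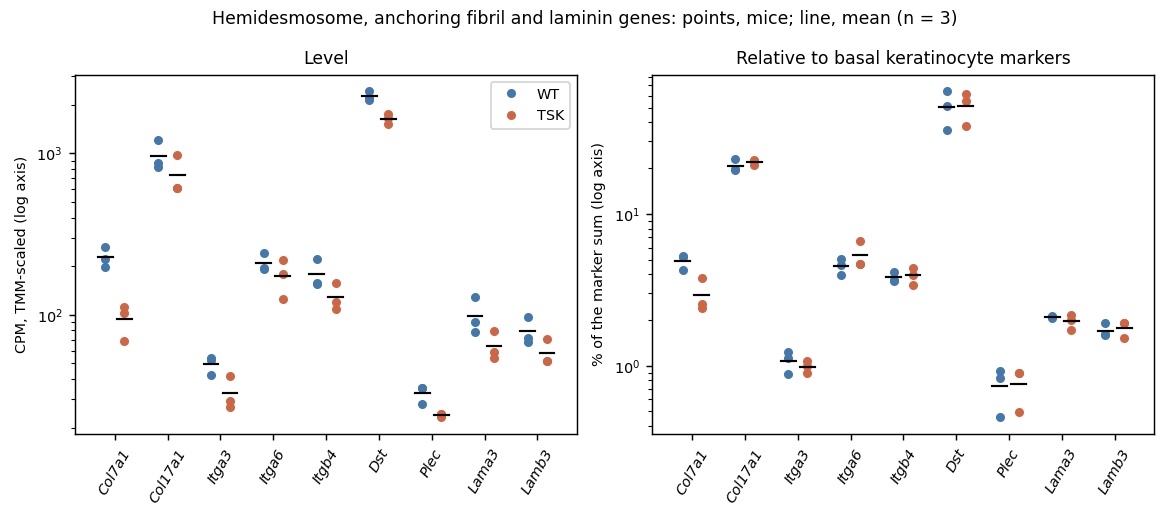
Left, level of 9 genes of the hemidesmosome, the anchoring fibril and their laminin (y axis, TMM-scaled CPM, log axis); right, the same genes as a percent of the summed CPM of 5 basal keratinocyte markers (log axis). Points are mice (3 per genotype) and lines are means; on the right, Col7a1 is the gene whose groups do not overlap.

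The Fraser complex genes Fras1, Frem1 and Frem2 encode large proteins that link epidermis and dermis during development, and 1 of the 3 passed the test. Frem1 (chromosome 4, 82897920 to 83052339), which is made on the dermal side, was at 1.72, 2.33 and 1.62 CPM in WT and 6.95, 3.79 and 7.20 CPM in TSK. It rose by 1.66 (SE 0.30, edgeR adjusted p = 0.0268), from a low level. The call was lost without WT 2 (edgeR adjusted p = 0.0514), TSK 1 (0.0615) or TSK 3 (0.0685). Fras1 and Frem2, made by epidermal cells, had log2 fold changes of 0.27 and 0.02 with overlapping groups. Relative to the basal marker sum, Frem1 and Frem2 were higher in TSK without overlap (log2 ratios 2.11 and 0.58), as were 18.8% of all genes tested, and Fras1 had a log2 ratio of 0.76 with overlap.

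Npnt encodes nephronectin, which anchors the muscle of the hair follicle. It was at 67.0, 60 and 69.8 CPM in WT and 38.7, 21.4 and 41.8 CPM in TSK, a difference of -0.95 (SE 0.23) that fell just short with edgeR (adjusted p = 0.0645) and passed with DESeq2 (adjusted p = 0.00391). The groups did not overlap. Its relative Egfl6 had a value of -0.11, with overlapping groups.

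Of the matricellular and crosslinking genes, Pxdn passed the test and the 2 genes with the greatest differences did not. Pxdn (chromosome 12, 29937608 to 30017658), peroxidasin, the enzyme that crosslinks collagen IV, was at 62.4, 69.3 and 71.3 CPM in WT and 107, 122 and 108 CPM in TSK. It rose by 0.74 (SE 0.12, edgeR adjusted p = 0.0202), with little spread within either group. Without WT 2 or TSK 2 the edgeR adjusted p was 0.0623 or 0.0577.

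Sparc, a collagen-binding protein also made by many stromal cells, was at 555, 672 and 647 CPM in WT and 995, 1290 and 1910 CPM in TSK (1.16, SE 0.26, edgeR adjusted p = 0.0517). Smoc1, a relative of Sparc, was at 18, 15 and 11.7 CPM in WT and 30.8, 41.6 and 22.2 CPM in TSK (1.08, SE 0.24, edgeR adjusted p = 0.0522). Neither overlapped between the groups, and both passed with DESeq2 (adjusted p = 3.6e-05 and 0.0025). Smoc2 went the other way, at 71.1, 105 and 83.9 CPM in WT and 64.1, 66.8 and 70.0 CPM in TSK (-0.37, SE 0.16, edgeR adjusted p = 0.234), and Tinagl1 had a value of 0.60 with overlapping groups.

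Per exon length (counts divided by exon bases, scaled so that all genes of a library sum to 1000000), levels in WT were greatest for Sparc (255 ± 27.0), Col17a1 (248 ± 52.9) and Col4a1 (100 ± 25.7), followed by Dst (84.9 ± 3.20), Col4a2 (75.8 ± 17.9) and Hspg2 (70.0 ± 13.5). Sparc and Col17a1 differed by less than the SD of either, as did Col4a2 and Hspg2. In TSK the order was Sparc (765 ± 268), Col17a1 (248 ± 46.6), Col4a1 (173 ± 49.1), Nid1 (157 ± 54.6), Col4a2 (133 ± 35.1) and Hspg2 (127 ± 23.6), all SD with n = 3. There Col4a1 and Nid1 differed by less than the SD of either, as did Nid1 and Col4a2, and Col4a2 and Hspg2, while Col4a1 was above Col4a2 in each library. The lowest gene of the set was Frem1 in both groups (0.210 ± 0.0348 and 0.864 ± 0.212). These levels order genes within a group; they are not TMM-scaled, and Col17a1, for one, had equal means here and a log2 fold change of -0.40 on the TMM scale.

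Genes outside the set that act on basement membranes were counted by list. Of 13 further components, 11 were tested and 2 were higher in TSK, both netrins: Ntn4, which binds laminin (13.6, 15.9 and 18.8 CPM in WT; 34.6, 34.9 and 32.0 CPM in TSK; 1.07, edgeR adjusted p = 0.0112), and Ntn1 (1.67, edgeR adjusted p = 0.0239). Of 14 receptors and cytoskeletal linkers, 1 was higher, the collagen receptor Ddr2 (1.5, edgeR adjusted p = 0.0148), and the median of the list was -0.01. Of 13 assembly and modifying enzymes, 1 was higher, Bmp1, a protease that processes procollagens and laminin (1.23, edgeR adjusted p = 0.0171). Of 11 genes for degradation and its inhibitors, 3 were higher: Sulf1, which removes sulphate from heparan sulphate (1.69), the membrane protease Mmp14 (1.26) and Timp2 (1.27), with edgeR adjusted p of 0.0145, 0.0369 and 0.0369. Among all genes tested 2.71% were called higher and 0.681% lower; no gene of the 4 lists was called lower by edgeR, and the medians were 0.39 for components, 0.19 for assembly and 0.69 for degradation.

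Marker sums of several stromal cell types were higher in TSK, as were the 6 genes that rose. Fibroblast markers summed to 4880, 8340 and 8620 CPM in WT and 15700, 14800 and 32800 CPM in TSK (2 of 7 higher by edgeR). Col1a1 and Col3a1, neither past the threshold (edgeR adjusted p = 0.0654 and 0.119), made up 95.7% to 98.1% of that sum, and the other 5 fibroblast markers summed to 209 to 358 CPM in WT and 384 to 636 CPM in TSK. Sums were also higher for endothelial markers (159 to 214 and 236 to 397 CPM, 2 of 7 called) and for pericyte and smooth muscle markers (228 to 382 and 393 to 531 CPM, 1 of 6). Macrophage markers summed to 146 to 195 and 201 to 532 CPM (0 of 5, with 3 at an unadjusted p below 0.05). Adipocyte (308 to 521 and 504 to 2230 CPM, TSK 2 highest) and Schwann cell sums (133 to 217 and 197 to 334 CPM, 0 of 5) overlapped between the groups, and no marker of these lists was at 0 in any library. Of the 6 adipocyte markers, however, 5 were higher in TSK without overlap, against 14.1% of all genes tested, with a median log2 fold change of 2.92. For these markers edgeR called 2 (2.71% of all genes higher), DESeq2 4 (5.13%) and limma-voom 0 (2.17%). Adult skeletal muscle markers, whose fibres carry basement membranes with Lama2, summed to 136000 to 243000 CPM in WT and 106000 to 127000 CPM in TSK, with 7 of 8 negative, 1 positive and 0 called by edgeR or limma-voom (5 at an unadjusted p below 0.05, 6 called by DESeq2). Of 6 hair follicle markers tested, 3 were higher by edgeR and the median log2 fold change was 2.03, while the sum over the 7 counted overlapped (38.4 to 75.4 and 71.6 to 77.6 CPM), and Krt25, Krt71 and Shh were at 0 in at least 1 library. The part of these cell types in the values of the basement membrane genes was not tested.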

How the data were processed

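Dorsal skin RNA of 3 TSK and 3 WT mice was used. The authors depleted ribosomal RNA, made stranded libraries, sequenced single reads of 50 bases, aligned them with STAR to mm10 and quantified Ensembl genes in Partek Flow 11.0; whether strand was used in counting is not given in the sources used here. The table the authors deposited as raw holds estimated counts (43.3% to 45.4% of non-zero values whole within 0.001), which were rounded to whole numbers. The CPM values the authors deposited (counts scaled to 1000000) served for alternative tests and for the count of genes whose groups did not overlap on that scale.

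Genes kept by filterByExpr were tested with edgeR 4.0.16 in R 4.3.3 (quasi-likelihood, TMM, Benjamini-Hochberg over 19971 genes). A call is an adjusted p below 0.05. DESeq2 1.42.0 and limma 3.58.1 were alternatives, with other scalings, filters, a replicate block and libraries left out. The functions were tested on simulated data. Each p measures only the spread over 3 mice; libraries of a group differed by at least 8.85 in chi-square per degree of freedom, so none was a repeat deposit. Gene ends were read as 1 base past the annotated end, and 54651 of 55291 genes matched GENCODE M21 by position, which gave exon lengths. Transcripts were compared by BLAST 2.17.0 (95% identity, 100 bases).

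Values in every library were given for genes that passed, for up to 6 genes per direction whose groups did not overlap, and for hemidesmosome and a few chain genes fixed by name. The genes and lists were chosen with earlier results of these data known. One hair follicle marker, Krt85, was not analysed here. One item of the list of further components is not reported here.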

Additional observations from a re-analysis of the deposited data

How the results depend on the processing

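The number of genes called higher (6) was 13 with library size only and 15 with limma-trend on log2(deposited CPM + 1) or + 0.1 (8.44%, 8.87% and 8.82% of all genes, against 2.71%), scales on which the median over all genes moved from -0.03 to 0.25, 0.20 and 0.25 and that of the 39 genes from 0.02 to 0.25, 0.34 and 0.34 (0.34 with no filter on log2(CPM + 1)). The number called lower (1) was 3 with DESeq2 (1.85% of all genes, against 0.681%), 2 with no low-count filter (0.997%) and 3 with the cutoff at 0.1 (2.11%), while the thresholds of the study (fold 2.5, adjusted p 0.01) left 0 and 0. At those thresholds 6 were higher with library size only (1.45% of all genes, against 0.255%), 3 with DESeq2 (1.4%), 3 with no low-count filter (0.847%), 6 with limma-trend at either pseudocount (1.35% and 1.57%) and 2 with limma-trend and no filter (0.25%). Leaving out 1 library gave 0 to 7 higher, 0 to 2 lower and a median of -0.03 to 0.20. The median was 0.12 without WT 1, 0.20 without WT 2 and 0.10 without TSK 2. Without WT 3 there were 0 calls in either direction, and without TSK 2 there were 3 higher. On the deposited CPM, an alternative chosen after seeing the data, 17 genes were higher and 4 lower without overlap, in place of 9 and 8.

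Correlations of same-numbered libraries were 0.0112, 0.167 and -0.0938, beside -0.194 to 0.18 for libraries with different numbers. These values cannot show, with 3 libraries per group, whether same-numbered mice were paired. With the replicate block 3 genes were lower (Col7a1, Npnt and Lama3) and 7 higher, 1 of them at the thresholds of the study, where 0.646%, 3.33% and 0.421% of all genes were called. Lama5 (-0.25) reversed to 0.00 with library size only and to 0.04 in the 3 limma-trend fits. The Col4a1 to Col4a2 ratio was 1.45 in WT and 1.43 in TSK with the longest transcript as gene length. With that length the Lama3 and Lama1 shares of alpha chains did not overlap (TSK lower), and the Lama4 share ran from 17.9% to 19.9% in WT and from 32.0% to 40.7% in TSK, in place of 10.7% to 13.5% and 22.4% to 30.7%. Over the genes with values in every library, 381 of the alternative values kept direction and call, 30 gained the call, 17 lost it and 4 reversed. The causes were not tested, and 3 mice per group limit the precision of each value.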
